A study of Mus musculus with 4 samples.

Results

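The genes described here encode 6 secreted or membrane-attached proteins that set the strength of Nodal signalling: the ligands Nodal and Gdf3, the coreceptor Tdgf1 (Cripto), and the inhibitors Lefty1, Lefty2 and Cer1. They were chosen by name, with the levels of Lefty1 on these same arrays already known to be lower in every derived line and lowest in line 3. All 6 were measured, by 9 single-gene probe sets, out of 18193 genes and 45101 probe sets in the whole table. Messenger RNA had been hybridised to 4 Affymetrix mouse arrays, 1 per cell line. One array carried the induced pluripotent stem cell (iPSC) clone Adeno-1, which had been reprogrammed from tail-tip fibroblasts with adenoviral vectors. The other 3 carried the embryonic stem cell lines NT-1, NT-2 and NT-3 (NT-ESC lines 1, 2 and 3 below), which came from blastocysts cloned from Adeno-1 by nuclear transfer. Every line was kept on irradiated fibroblast feeders in serum-containing medium with LIF, and a short preplating served to take the feeders away before RNA was extracted. Each line is a single clone or subclone with 1 array, so no line has a spread of its own, and a mean ± SD over the lines describes these 3 arrays, which the labels do not call separate derivations.

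Nodal is a ligand of the TGF-beta family that binds type I and type II activin receptors with the help of Cripto and drives Smad2 and Smad3 into the nucleus, where they act with Smad4 and FoxH1. Among the genes switched on in this way are Nodal itself and the Lefty genes, whose products block the ligand and its coreceptor, so that the pathway carries its own brake. Mouse embryonic stem cells make and answer Nodal in culture, and Lefty1 has long been used as a gene of the undifferentiated state that also depends on Oct4, Sox2 and Klf4.

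The RefSeq promoter table (GRCm38.p6; 250 bases before to 50 after a gene's start) held 3 of the 6 genes, Nodal, Tdgf1 and Cer1. The windows of the ligand gene and of its coreceptor are shown because these are the activating side of the pathway in the comparison below. Capitals mark matches on either strand to the following patterns. TGTNNATT is a loose forkhead pattern that takes in FoxH1-type sites among others. GTCTG is a Smad-binding element, and GGGCGTGG is a Klf and Sp type GC box. None of these matches overlaps another.
Nodal: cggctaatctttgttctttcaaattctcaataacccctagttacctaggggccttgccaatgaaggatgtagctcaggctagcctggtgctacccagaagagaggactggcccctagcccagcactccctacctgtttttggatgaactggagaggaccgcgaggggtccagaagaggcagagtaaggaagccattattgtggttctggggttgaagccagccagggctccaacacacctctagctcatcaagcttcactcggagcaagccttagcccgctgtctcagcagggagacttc
Tdgf1: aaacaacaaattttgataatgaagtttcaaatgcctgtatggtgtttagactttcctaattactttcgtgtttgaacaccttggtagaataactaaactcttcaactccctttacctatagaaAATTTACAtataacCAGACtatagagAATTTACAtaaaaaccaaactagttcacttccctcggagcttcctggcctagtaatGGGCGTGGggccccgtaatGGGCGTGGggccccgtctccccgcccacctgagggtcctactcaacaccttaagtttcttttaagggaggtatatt
The Nodal window is chr10:61417722-61418021 on the plus strand, and the letters of none of the 3 motifs occur in it. The Tdgf1 window is chr9:110946109-110946408 on the minus strand and holds 2 forkhead matches, 1 Smad element between them and 2 GC boxes nearer the start. The Cer1 window holds 1 Smad element. Of the 32851 windows in the table, 12.2% hold the forkhead pattern, 49.6% the Smad element and 5.33% the GC box. These matches describe letters and not binding.

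Levels are log2 intensities with each array's mean set to an assumed 7, because the deposited values did not state that mean. Another mean shared by all arrays would scale every log2 difference alike, by -14.3% at a mean of 6 and by 12.3% at 7.86. The mean of 7.86 puts the brightest probe set at the 16-bit limit of 16. Means that differ between arrays were not tried. A gene was called bright when its mean over the arrays was at least 6.83, the median over all probe sets. Where a gene had several probe sets, the brightest on average stands for it. Where a member has a second probe set, it is given beside the first. For several other genes, a further probe set or the mean over all of the gene's probe sets is given too. No level is compared between genes, since each probe set has its own response.

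Lefty1, the secreted inhibitor that opposes Nodal and Cripto, differed most among the 6 genes. Its level was 10.54 in the iPSC clone, 9.60 in NT-ESC line 1, 10.14 in line 2 and 8.45 in line 3. All lines lay below the clone, with line 3 lowest. The lines had a mean of 9.39 ± 0.87 (SD, n = 3), a log2 difference of -1.15 from the clone, and of -0.675 without line 3. That mean difference was the largest decrease among the 11747 bright genes, which describes how the gene was chosen and is no test.

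Per line, Lefty1 stood 1.93-fold lower in line 1, 1.32-fold lower in line 2 and 4.28-fold lower in line 3 than in the clone. With the assumed mean at 6 and 7.86 the value in line 3 was 3.48-fold and 5.12-fold, and that in line 1 was 1.76-fold and 2.09-fold. At least 1.5-fold lower than the clone were 0.125% of the genes compared in line 1, 0.05% in line 2 and 0.708% in line 3, and at least 1.5-fold higher were 0.342%, 0.0917% and 1.06%. Lefty1 was past that limit in lines 1 and 3 and was the only one of the 6 genes past it in any line. Counting itself, 2 of 11982 genes lay at least as far below the clone in line 1, 36 of 11992 in line 2 and 3 of 12014 in line 3. These ranks describe a gene chosen by these values and are no test.

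The order of Lefty1 levels was clone, line 2, line 1 and line 3. Line 2 differed from the clone by -0.40, line 1 from line 2 by -0.55 and line 3 from line 1 by -1.15. A gap at least as wide in the same direction was seen in 0.300%, 0.101% and 0.218% of the genes compared between these pairs of arrays. Lefty1 was chosen by these levels, and its own order set the pairs, so these shares are no test. With 1 array per line, no step has a replicate error to be set against.

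**Figure D1:**
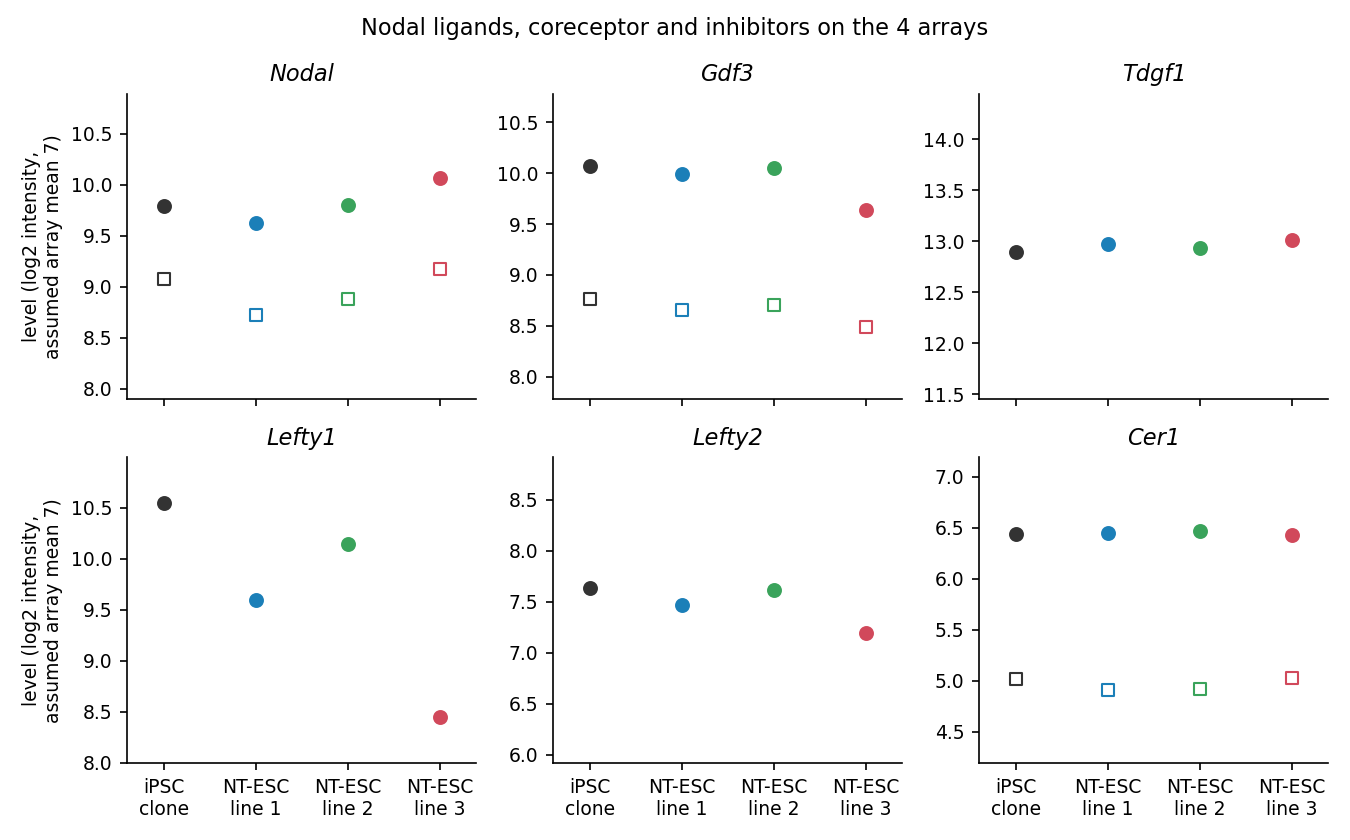
Level of each of the 6 genes (log2 intensity with an assumed array mean of 7; every panel spans 3 log2 units) on the arrays of the iPSC clone and of NT-ESC lines 1 to 3. Filled circles are the probe set that stands for the gene and open squares its second probe set; Lefty1 runs from 10.54 in the clone to 8.45 in line 3, while Tdgf1 stays between 12.89 and 13.01.

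Lefty2, the neighbouring paralog that acts as a feedback inhibitor in the embryo, was lower in the same line but by less. It stood at 7.63 in the clone, 7.47 in line 1, 7.62 in line 2 and 7.20 in line 3. Line 2 was within 0.02 of the clone and line 3 was 1.35-fold lower. The mean difference between the lines and the clone was -0.21, and -0.09 without line 3. In all, 169 of 12014 genes (1.41%) lay at least as far below the clone in line 3. The Lefty proteins are close paralogs, and the probe sequences were not examined, so signal shared between their probe sets was not tested.

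Cer1, which encodes Cerberus, an antagonist of Nodal and BMP made by anterior visceral endoderm, was below the median level on both of its probe sets. The brighter one read 6.44 in the clone and 6.45, 6.47 and 6.43 in lines 1, 2 and 3. The other read 5.02, 4.91, 4.92 and 5.02 in the same order. The arrays thus covered a range of 0.04 on one probe set and 0.11 on the other, and the probe sets do not rank the arrays alike.

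Nodal, the ligand, had its highest level in line 3. Its brighter probe set read 9.79 in the clone, 9.62 in line 1, 9.80 in line 2 and 10.07 in line 3. Its other probe set read 9.08, 8.73, 8.88 and 9.17. On both, line 1 was lowest, and line 3 was highest, the line where Lefty1 was lowest. Line 3 exceeded the mean of the other 3 arrays by 0.33 and 0.28 on the 2 probe sets. Against the clone, the mean of the lines differed by 0.04 on one (-0.08 without line 3) and by -0.15 on the other, so no common direction was seen there.

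Gdf3 is a Vg1-related ligand of the same receptors that also uses Cripto and can inhibit BMPs. Its levels were 10.07 (clone), 9.99 (line 1), 10.05 (line 2) and 9.64 (line 3). The second probe set read 8.76, 8.65, 8.71 and 8.49. Both probe sets had the clone highest and line 3 lowest. The mean difference between the lines and the clone was -0.18, and -0.05 without line 3. Lines 1 and 2 differed from the clone by -0.08 and -0.02 on the first and by -0.11 and -0.05 on the second. In line 3 the decrease from the clone was 1.35-fold, a size that 1.46% of genes reached in that direction.

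Tdgf1, the coreceptor, varied little. It read 12.89 in the clone and 12.97, 12.94 and 13.01 in the lines. The clone was lowest, and the whole range over the 4 arrays was 0.12. The lines averaged 12.97 ± 0.04 (SD, n = 3).

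Across the set, 3 of the 6 genes (Gdf3, Lefty1 and Lefty2) were lower than the clone in every line, a pattern held by 26.7% of all genes and 21.4% of bright ones. Tdgf1 alone was higher in every line, as were 24.7% of all genes and 29.9% of bright ones, and Nodal and Cer1 had lines on both sides of the clone. Lowest in line 3 were 4 of 6 (Gdf3, Lefty1, Lefty2 and Cer1), against 28.8% of all genes and 31.1% of bright ones. Highest there were 2 of 6 (Nodal and Tdgf1), against 25.7% and 26.7%. The choice of the genes used these arrays, so nothing is read from these shares. In bulk RNA, fewer cells expressing a gene and less RNA per cell cannot be told apart.

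**Figure D2:**
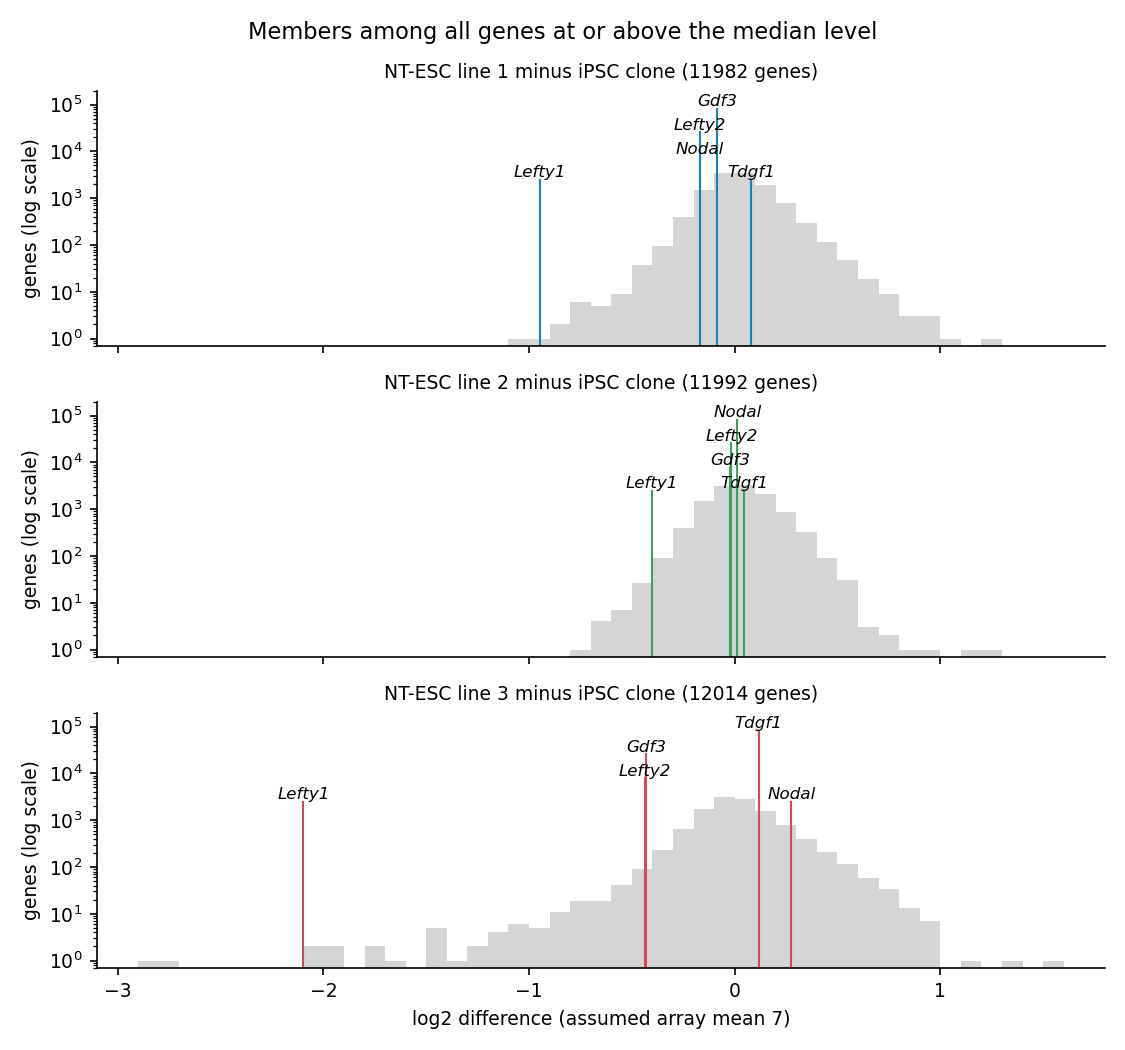
Histograms of the log2 difference between each NT-ESC line and the iPSC clone over all genes whose brighter array reached the median level (gene counts on a log axis), with vertical lines at the 5 bright members, whose heights only keep the names apart. Lefty1, chosen as lower in every line, lies in the lower tail in lines 1, 2 and 3 at -0.95, -0.40 and -2.10. Gdf3 and Lefty2 lie furthest from 0 in line 3, at -0.43 and -0.44.

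The labelled cell type was checked on markers. All 8 pluripotency markers were bright, and their mean level was 11.86 in the clone and 11.90 to 11.99 in the lines. The 14 markers of primitive and visceral endoderm, a source of Lefty1 and Cer1 in the embryo, averaged 7.35 in the clone and 7.34 to 7.39 in the lines, and 7 of them were below the median level, among them Gata4, Gata6, Sox7 and Sox17. Of these 14, the furthest from the other arrays in line 3 were Cubn (0.52), Dab2 (0.30), Gata6 (0.29) and Afp (-0.28), with a list median of 0.029. In each other marker list of this paragraph, 1 marker lay furthest from the other arrays there. These were Sall4 for pluripotency (-0.19), Pdgfrb for fibroblasts (0.22), Krt18 for trophectoderm (-0.91) and Eomes for primitive streak (0.56). The part of the endoderm markers in the results was not tested. The 13 measured fibroblast and feeder markers averaged 8.25 to 8.40, highest in line 2, and the part of feeder RNA in the results was not tested. The 7 trophectoderm markers averaged 7.24 in the clone and 7.59, 7.48 and 7.20 in lines 1 to 3. Among them the keratin gene Krt8 read 8.39 in the clone and 9.62, 9.35 and 8.41 in the lines, Krt18 read 8.30, 9.37, 9.08 and 8.01, and Tfap2c 8.49, 9.25, 8.97 and 8.92. Cdx2 and Gata3 were below the median level and lower in every line than in the clone. Elf5, also below that level, read 6.30 in the clone and 6.34, 6.16 and 6.25 in the lines. The bright Hand1 read 8.11 in the clone and 7.99, 8.05 and 8.25 in the lines. The part of the trophectoderm markers in the results was not tested. The markers singled out for line 3 and the trophectoderm markers were named after their values were seen. The 7 measured markers of mesoderm and primitive streak averaged 5.85 in the clone and 5.86 to 5.96 in the lines, and 6 of them were below the median level. Line 3 was set against the other arrays because earlier results of these data had singled it out, and it is an arm of 1 array, assumed to vary like the other 3. In that comparison 84 of 18193 genes passed limma's test (Benjamini-Hochberg adjusted p under 0.05), 29 higher (0.159%) and 55 lower (0.302%). Without line 1 or without line 2 none passed. Between the lines and the clone 0 passed in limma, where 1006 (5.53%) had an unadjusted p under 0.05.

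The rest of the pathway was taken from 5 lists holding 52 different genes, of which 50 were measured and 40 were bright; Gdf1 and T were not analysed here. None of the 50 passed limma's test between the lines and the clone (smallest Benjamini-Hochberg adjusted p = 0.856), where 0% of all genes passed. At an unadjusted p under 0.05, 8 were higher and 2 lower, against 3.46% and 2.07% of all genes. The 8 were Acvr1b, Inhbb, Inha, Pcsk6, Smad7, Pmepa1, Fgf8 and Wnt3, and the 2 were Foxh1 and Pcsk5; those outside the rule for named genes (Fgf8, Wnt3, Pcsk5) were singled out after their values were seen. Fgf8, Wnt3 and Pcsk5 had mean levels of 5.49, 3.58 and 6.58, below the median level. The median log2 difference over the 50 genes was -0.00205, beside -0.00311 over all genes. Higher than the clone in all lines were 16 of the 50 (24.7% of all genes), and lower in all lines were 11 (26.7% of all genes). The counts of single lists below stand beside these same shares of all genes, and nothing is read from them.

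Of the 7 receptors and coreceptors, 2 were higher and 0 lower in all lines, with a median of 0.00641. Acvr1b, the type I activin receptor Alk4 through which Nodal signals, read 8.59 in the clone and 8.90, 8.90 and 8.96 in the lines. Every line lay above the clone, on average by 0.33 ± 0.08 (SE), but the gene did not pass (limma, Benjamini-Hochberg adjusted p = 0.856), and its other probe set differed by 0.06. Acvr2a, a type II receptor, differed by 0.11 ± 0.09 and by 0.0086 on its second probe set, and the type II receptor Acvr2b by -0.02 ± 0.09. Tgfbr1, the TGF-beta type I receptor, differed by 0.06 ± 0.12, with a sign that turned when its 3 probe sets were averaged and when line 1 was left out; that of Acvr2b turned without line 1.

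Of the 12 measured other ligands and extracellular inhibitors, 3 were higher and 4 lower in all lines, with a median of -0.0221. Inhbb, the beta-B chain of activin, which shares the receptors of Nodal, read 8.84 in the clone and 9.57, 9.13 and 9.39 in the lines. The difference was 0.53 ± 0.17 (SE), and the second probe set gave -0.01, so the probe sets disagree. Inha, the inhibin alpha chain, read 6.77 in the clone and 6.93 to 7.09 in the lines. Gdf11, a related ligand, differed by -0.17 ± 0.08. Dand5, a Cerberus-like inhibitor on chromosome 8, differed by -0.12 ± 0.09. Of the 4 listed proprotein convertases, a family with members that cut the Nodal precursor, 2 were higher and 1 was lower in all lines. The lower one, the dim Pcsk5, read 6.80 in the clone and 6.43, 6.57 and 6.52 in the lines, a difference of -0.30 ± 0.09 (SE). With the mean of its 5 probe sets the difference of Pcsk5 was -0.12. Pcsk6 (Pace4) read 8.41 in the clone and 8.68, 8.64 and 8.93 in the lines, a difference of 0.34 ± 0.13 that was 0.25 without line 3. Furin differed by 0.11 ± 0.08 and Pcsk7 by -0.02 ± 0.09, the sign of the latter turning without line 3.

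Among the 17 Smads and nuclear partners 5 were higher and 3 lower in all lines, with a median of 0.00261. Smad7, the inhibitory Smad that is induced by the pathway it blocks, read 10.77 in the clone and 11.06, 11.05 and 11.22 in the lines. Its difference was 0.35 ± 0.10 (SE) and 0.40 on the second probe set, with every line above the clone on both. Foxh1, the forkhead partner of Smad2, read 9.35 in the clone and 9.10, 9.08 and 9.19 in the lines. All 3 of its probe sets were lower on average in the lines, with differences of -0.22, -0.32 and -0.20. Drap1, a corepressor that binds FoxH1, differed by 0.18 ± 0.11, and Tgif2, a repressor of Smad-driven transcription, by 0.15 ± 0.08, with 0.016 on its second probe set. None of these 4 genes passed (limma, Benjamini-Hochberg adjusted p = 0.856 to 0.862).

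Of the 13 measured Nodal and activin target genes, 5 were bright and 8 were below the median level. Among these 8 were Fgf8, Wnt3, and the mesendoderm genes Gsc, Mixl1, Foxa2, Lhx1 and Sox17. The list had 5 genes higher and 3 lower in all lines, with a median of 0.0349. Pmepa1, a feedback inhibitor of Smad signalling, read 7.55 in the clone and 7.85, 7.89 and 7.99 in the lines. The difference was 0.36 ± 0.09 (SE), with 0.20 on its second bright probe set. Eomes, a T-box factor of mesendoderm, read 7.65, 7.99, 7.83 and 8.38, highest in line 3; its difference was 0.41 ± 0.21, 0.25 without line 3, and 0.19 on its second probe set. Skil (SnoN), a Smad corepressor and target, read 10.97 in the clone and 10.86 to 10.98 in the lines. Its second bright probe set read 7.42 in the clone and 7.12, 6.96 and 7.23 in the lines, a difference of -0.32 where the first gave -0.04, so the probe sets disagree in size. Of the 5 bright targets, Smad7, Pmepa1 and Eomes stood above the clone in every line, as did 29.9% of all bright genes. Tgif1, with a mean difference of 0.03, and the first probe set of Skil had lines on both sides of the clone.

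**Figure D3:**
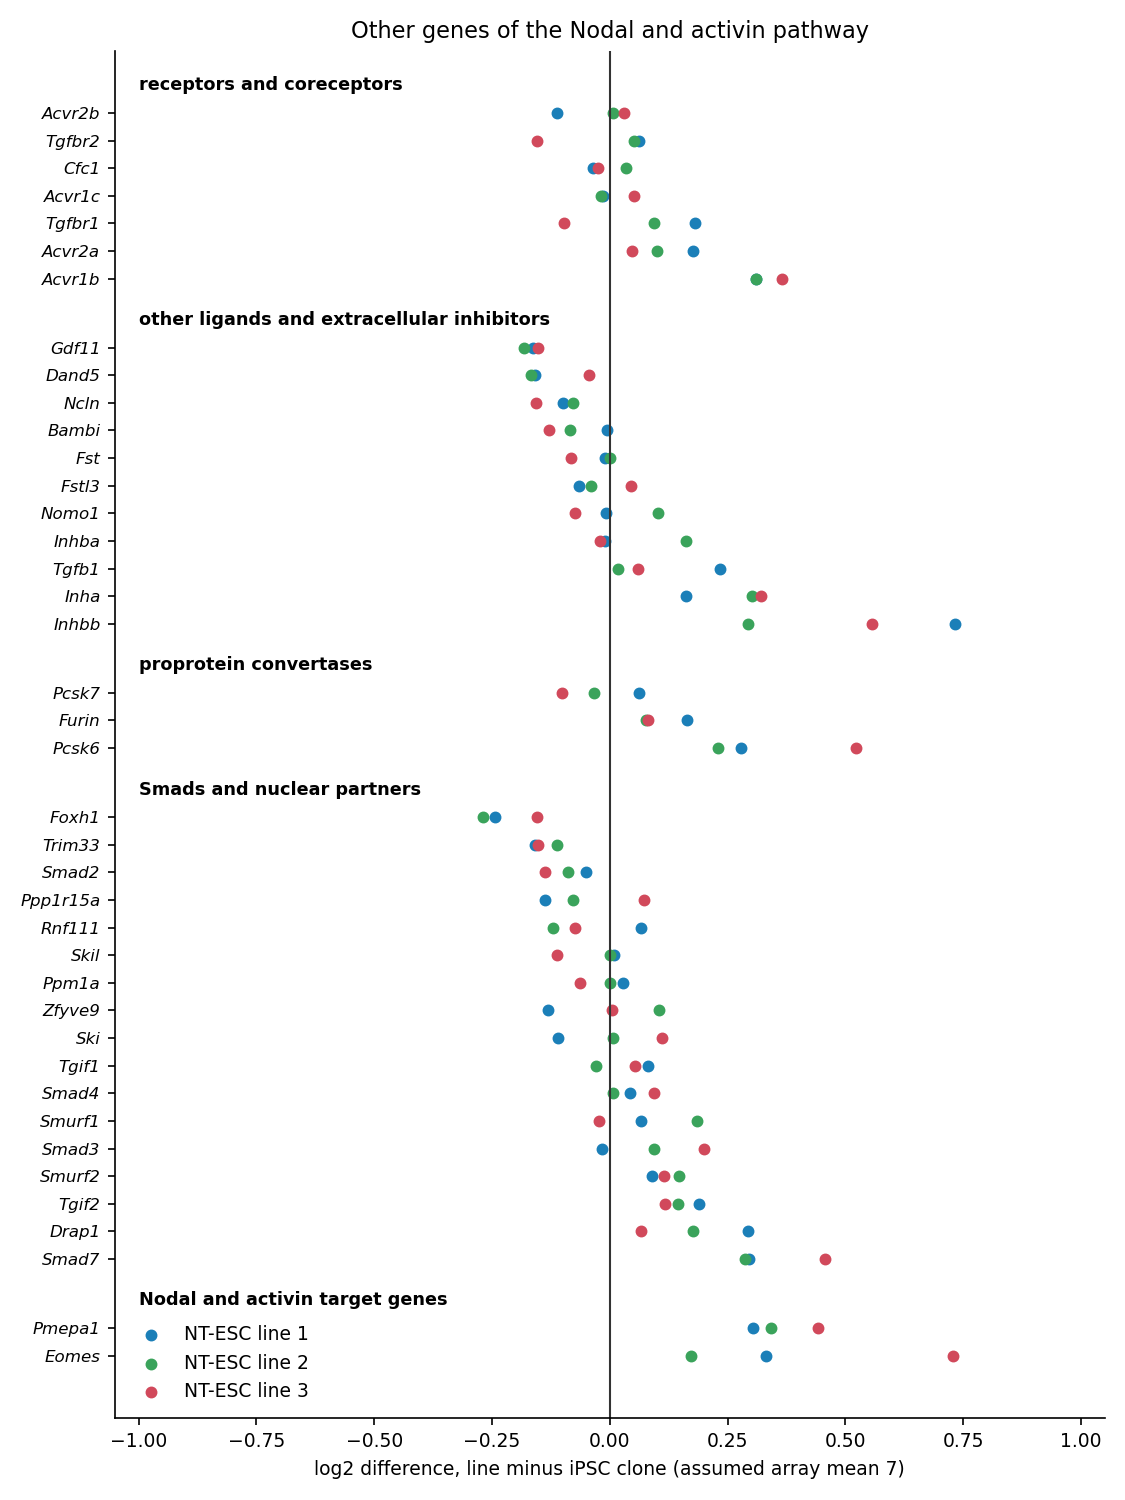
Log2 difference from the iPSC clone in NT-ESC lines 1, 2 and 3 (1 point per line) for the 40 bright pathway genes other than the 6 members, grouped by role; Smad7, Skil and Tgif1 are in both of the last lists and drawn once, with the Smads. Of these 40, 14 have all points above 0 (29.9% of all bright genes do), among them Acvr1b, Inhbb, Smad7, Pmepa1 and Eomes. All points are below 0 in 7 (21.4% of all bright genes), namely Gdf11, Dand5, Ncln, Bambi, Foxh1, Trim33 and Smad2.

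Against the other 3 arrays, line 3 had none of the 50 pathway genes past limma's test, beside 0.462% of all genes. The smallest adjusted p was 0.111, for Tgfb2, and at an unadjusted p under 0.05 there were 2 higher (Eomes, Pcsk6) and 2 lower (Tgfb2, Tgfbr2), against 5.8% and 5.76% of all genes. Eomes was higher there by 0.56 ± 0.13 (SE) (limma, Benjamini-Hochberg adjusted p = 0.127), and by 0.47 on its second probe set. Pcsk6 was higher by 0.35 ± 0.12 (limma, Benjamini-Hochberg adjusted p = 0.308). Tgfb2, a ligand on chromosome 1 singled out after its values were seen, read 6.46 in the clone, 6.91 in line 1, 6.54 in line 2 and 5.87 in line 3, and its mean was below the median level. Its difference was -0.77, and -0.47 with the mean of its 4 probe sets. Tgfbr2 differed by -0.19 ± 0.08, and by -0.07 with the mean of its 3 probe sets. Of the 50 genes, 14 were lowest and 15 highest in line 3, beside 28.8% and 25.7% of all genes, and their median difference was -0.00178, beside -0.0059 over all genes.

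The position of the genes was read from the RefSeq gene order (GRCm38.p6). Lefty1 and Lefty2 are adjacent measured genes on chromosome 1, and their 6 nearest measured neighbours other than each other were spread from -0.27 to 0.08 in line 3 against the other arrays. Sde2, a splicing and replication factor on the side of Lefty2, read 9.84 in the clone and 9.98, 10.02 and 9.94 in the lines. Tmem63a, a membrane channel gene on the side of Lefty1, read 8.18 in the clone and 8.06, 8.21 and 7.88 in the lines. Between the mean of the lines and the clone these 6 differed by -0.13 to 0.14. Lefty1 itself differed by -1.65 in line 3 against the other arrays. It was chosen as lowest there, so its distance from these neighbours is no test.

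Gdf3 lies on chromosome 6 in a row with Dppa3, the pluripotency gene Nanog and Slc2a3. Dppa3 (Stella), a maternal-effect and germ cell gene and the next one measured, read 9.32 in the clone, 9.88 in line 1, 9.50 in line 2 and 8.55 in line 3. Its difference between line 3 and the other arrays was -1.02 ± 0.19 (SE) and did not pass (limma, Benjamini-Hochberg adjusted p = 0.0891). Nanog read 12.05, 12.28, 12.28 and 12.04, and Slc2a3, a glucose transporter, 13.31, 13.27, 13.60 and 13.51. On the other side of Gdf3, Rimklb, an amino acid ligase gene, differed by -0.45 in line 3 from the other arrays, Mfap5, a microfibril protein gene, by -0.25 and Apobec1, a cytidine deaminase gene, by 0.01, where Gdf3 itself differed by -0.40. The 6 neighbours of Gdf3 thus ranged from -1.02 to 0.12, and none passed. Tdgf1 lies next to Lrrc2 on chromosome 9. Lrrc2, a leucine-rich repeat gene, read 8.97 in the clone, 8.87 in line 1, 8.95 in line 2 and 7.84 in line 3. It fell by 1.09 ± 0.08 (SE) in line 3 (limma, Benjamini-Hochberg adjusted p = 0.00446), a call that is lost without line 1 or line 2, while Tdgf1 had its highest level there. Lrrc2 was the 1 gene that passed among the 30 different neighbours of the 6 genes; 0.302% of all genes passed in that direction. The neighbours of Nodal ranged from -0.10 to 0.11 and those of Cer1 from -0.09 to 0.10 in line 3.

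**Figure D4:**
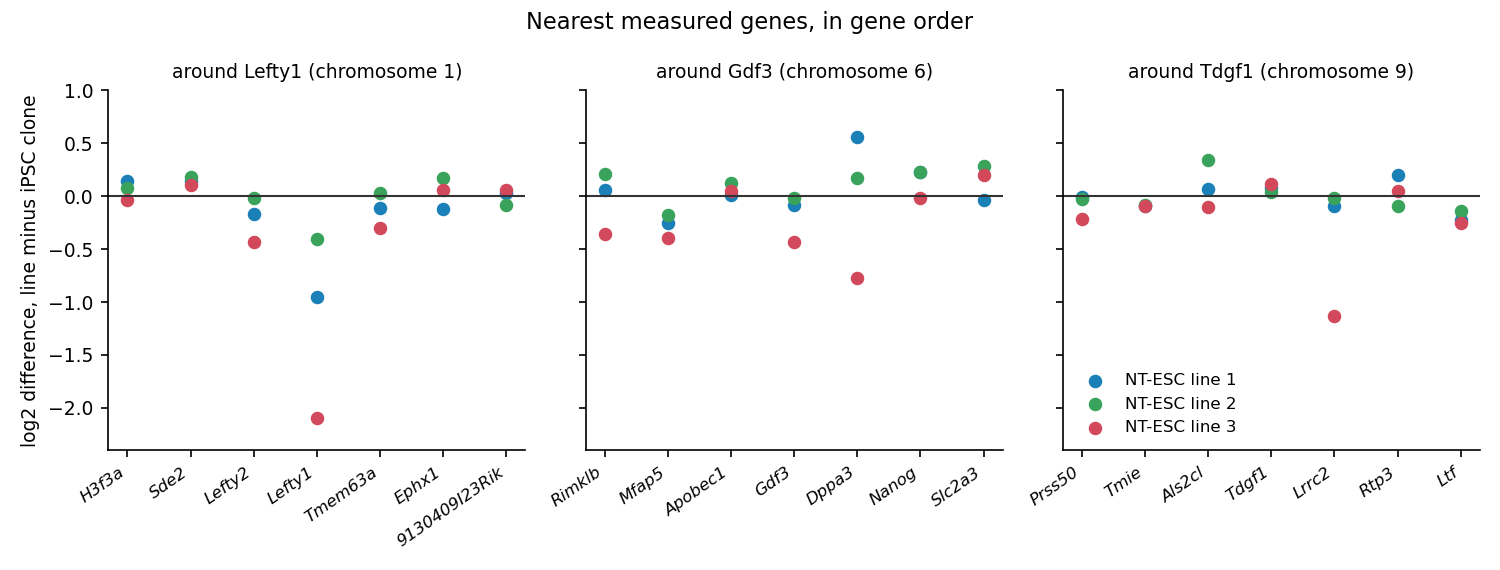
Log2 difference from the iPSC clone in NT-ESC lines 1, 2 and 3 (1 point per line) for Lefty1, Gdf3 and Tdgf1, each in the middle of its panel, and the 3 nearest measured genes on each side in chromosome order, evenly spaced. Lefty1, which was chosen as lowest in line 3, is at -2.10 there, and Lrrc2 beside Tdgf1 is at -1.13 in line 3.

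The genes most like Lefty1 were sought among 11746 other bright genes by the Euclidean distance between levels on the 4 arrays after subtracting each gene's mean, a measure that keeps the size of a change. The nearest were Gpa33 (distance 0.559), Mael (0.623), Ttn (0.694), Morc1 (0.730) and Apoa2 (0.730). Gpa33, a cell surface antigen of intestinal epithelium, read 8.84 in the clone and 8.55, 8.77 and 7.42 in the lines, the order that Lefty1 had. Mael, a germ line gene of the piRNA pathway, read 9.19, 8.74, 8.94 and 7.89, again in that order. Ttn, which encodes titin, read 7.46, 7.22, 7.28 and 6.21. Morc1, needed in male germ cells for transposon silencing, read 9.87 on each of the other 3 arrays and 8.53 in line 3, and Apoa2, an apolipoprotein gene, stood between 8.95 and 9.08 outside line 3 and read 7.58 in it. Gpa33, Mael and Apoa2 lie on chromosome 1, like Lefty1, while Ttn lies on chromosome 2 and Morc1 on chromosome 16. The share of all bright genes on chromosome 1 was not computed, so nothing is read from these positions. Of the other members, Lefty2 was 124th and Gdf3 137th in this order, at distances of 1.23 and 1.25, while Nodal was 10940th. These genes were picked for their pattern, so no test is given.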

How the data were processed

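Messenger RNA of 1 iPSC clone and 3 NT-ESC lines was measured on 1 Affymetrix array each; so few arrays limit the precision. The values deposited by the authors are on a log2 scale. They were read as log2 of each probe set's log intensity over its array's mean log intensity, because the ratio averages 1 on each array. That average goes with this reading but does not settle it. Which software and background correction made them is not given in the sources used here, so neither could be checked. The plan had assumed log2 intensities, so levels were computed as 7 times the ratio, 7 being an assumed mean log2 intensity, with 6 and 7.86 as alternatives.

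Of 45101 probe sets, 34945 name 1 gene, 932 several and 9160 none, and 64 are controls. Of the probe sets that name 1 gene, 34741 have a gene ID found in RefSeq. The probe set with the highest mean stood for each of 18193 genes. limma 3.58.1 in R 4.3.3 (lmFit, eBayes, two-sided, Benjamini-Hochberg over all genes, threshold 0.05) compared the lines with the clone and line 3 with the other arrays, and the code was tested on simulated data. In each comparison 1 arm is a single array (the clone, or line 3), assumed to vary like the others; line 3 was chosen from these data, and p-values measure only the spread between these arrays, which may be technical. The 6 genes were not tested, since their choice used these contrasts.

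The members and gene lists were chosen with earlier results of these data known. Named were the members, up to 4 bright genes per pathway list with the largest difference between lines and clone, any list gene past a threshold, the 5 genes nearest Lefty1, the 3 nearest measured genes on each side of a member, and defining markers. Alternatives were quantile normalization, the mean of a gene's probe sets, bright genes only, each line left out and another assumed mean.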

Additional observations from a re-analysis of the deposited data

How the results depend on the processing

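Under the 8 settings Lefty1 differed between the mean of the lines and the clone by -1.52 to -0.675. In line 3 against the other arrays it differed by -1.90 to -1.41 under 7 settings. Its sign is no test, because Lefty1 was chosen as lower in every line and lowest in line 3. Leaving out a line or rescaling cannot turn such a sign, and Lefty1 has a single probe set. Only quantile normalization could have turned it, and gave -1.18 and -1.65. Gdf3, Lefty2 and Tdgf1, each on 1 side of the clone in every line and at an extreme in line 3, kept their signs too. Against the clone Gdf3 ran from -0.26 to -0.05 and Lefty2 from -0.30 to -0.09, each nearest 0 without line 3 (Tdgf1 0.06 to 0.10). Nodal against the clone kept its sign in 5 of 8 settings (-0.08 to 0.14). The genes passing in line 3 numbered 84, 133 after quantile normalization and 168 with the mean of probe sets, and 0 to 0 when line 1 or line 2 was left out. With quantile normalization the median difference between lines and clone was -0.030 for the Smads, -0.012 for the target genes and -0.015 for all pathway genes, and the targets' median in line 3 was 0.012. With the mean of probe sets, Cer1 stood at -0.031 against the clone and 0.027 in line 3, Gdf3 at -0.308 in line 3, the receptors' median at -0.035 against the clone, and the medians in line 3 at 0.0023 for convertases and 0.035 for targets. Gdf3 in line 3 was -0.339 at an assumed mean of 6 and -0.444 at 7.86. With each line left out in turn, the medians against the clone ran from 0.017 to 0.057 for receptors, -0.043 to 0.021 for other ligands, 0.00065 to 0.050 for Smads and -0.013 to 0.020 for all pathway genes. In line 3 they ran from -0.049 to -0.020 for convertases and from 0.027 to 0.060 for targets. The causes were not tested. No paired analysis was possible because there is a single iPSC array, of the clone from which all 3 lines derive, and the numbers of the lines name subclones.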
